A study of Mus musculus with 3 samples.

Results

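The 4 interferon-induced transmembrane genes described here are Ifitm1, Ifitm2, Ifitm3 and Ifitm6, out of 20076 genes with a UMI (unique molecular identifier, the tag of a captured RNA molecule) in splenocytes of lupus-prone and hypertensive mice. They were taken by name, and the family was chosen by the very high Ifitm1 and Ifitm2 levels in B cells of the lupus-prone strain, so the B cell values of that strain against control are a description and carry no test. Splenocytes were profiled by droplet single-cell RNA sequencing from the 5′ end, in 3 libraries. The control library held male sham-treated C57Bl/6 mice together with female C57Bl/6 mice. The Ang II library held male C57Bl/6 mice given angiotensin II, with placebo or with the isolevuglandin scavenger 2HOBA (2-hydroxybenzylamine), from minipumps implanted at 10 weeks of age and set, as the labels give it, to 490 ug/kg/min for 2 weeks. The B6.SLE123 library held mice of the congenic strain B6.SLE123, which carries the Sle1, Sle2 and Sle3 intervals of a lupus-prone strain on a C57BL/6 background, from 7 weeks of age on placebo or 2HOBA for 6 weeks. These mice were female per the study's methods. All mice were 12 to 14 weeks old at harvest, T cells had been removed from every spleen with CD3 microbeads, and 3 mice were pooled per condition.

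With 1 library per group, no difference between libraries could be tested. Strain, sex, treatment and library cannot be told apart. Intervals below are 95% intervals for counting error only, exact Poisson for levels, exact Clopper-Pearson for shares of cells and exact conditional for ratios. Levels are UMIs of the gene per 1000000 UMIs of the cell class (CPM). Every library also carried 6 hashtags, C0301 to C0306, which are antibody tags that mark pools of cells. The labels do not say which hashtag belonged to which condition, so the hashtag populations are 6 unassigned cell pools per library, given by their lowest, median and highest value, and 2HOBA was not compared.

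After filtering, 15695, 14012 and 16694 cells remained in the libraries of control, Ang II and B6.SLE123 mice, with medians of 1759, 2724 and 1888 UMIs per cell. B cells, called by at least 2 of 6 B cell markers with no other class called, numbered 13324, 11571 and 13079. Their 6 markers summed to 8786, 8172 and 7778 CPM, and the 12 neutrophil markers, none at 0 in any library, summed to 61.3, 239 and 142 CPM in the same B cells. Any pair of libraries shared at most 347 kept cell barcodes.

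IFITM proteins are small membrane proteins that hinder the entry of enveloped viruses by changing the membranes at which virus and cell fuse, and their genes are classical targets of interferon. Ifitm3 acts mainly in endosomes and Ifitm1 mainly at the cell surface. In B cells, the IFITM1 protein is found in a membrane complex with CD21 and CD81, and IFITM3 can support phosphoinositide signalling at the membrane. Ifitm6 is known mostly from myeloid cells.

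The 4 genes lie together on chromosome 7 within 63.1 kb (GRCm38, GENCODE vM21). Ifitm2 (ENSMUSG00000060591) spans chr7:140954837-140955987 on the minus strand, Ifitm1 (ENSMUSG00000025491) chr7:140967221-140969825 on the plus strand, Ifitm3 (ENSMUSG00000025492) chr7:141009586-141010770 on the minus strand, and Ifitm6 (ENSMUSG00000059108) chr7:141015699-141017924 on the minus strand. The predicted gene Gm45717, which is not among the genes counted, overlaps Ifitm2 on the same strand. The 4 transcripts resemble each other, with 68.2% identity between Ifitm1 and Ifitm6 and 76.5% between Ifitm2 and Ifitm3, the least and most alike pairs over aligned bases. No stretch of 90 bases of any member was present in another member. Stretches of 50 bases were shared at 15 of 687 positions between Ifitm1 and Ifitm3 and at 20 of 606 positions between Ifitm2 and Ifitm3, and at 0 of 687 between Ifitm1 and Ifitm2. The longest stretch in common was 69 bases, between Ifitm2 and Ifitm3, so short reads over it could have been assigned to neither.

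Since these genes differed in B cells by very unequal amounts, the stretch before the RefSeq start of each is shown, to compare the letters of the interferon-stimulated response element, the site through which interferon acts on many of its targets. The core searched, on either strand, was GAAA, then 2 bases of any kind, then GAAA again, over the 250 bases before and 50 after each gene start in RefSeq (GRCm38.p6). All 4 genes had an entry. The 120 bases shown, 5′ to 3′ on the strand of the gene, end just before the first annotated exon near that start, and capitals mark the motif. The Ifitm1 window, chr7:140967908-140968027 on the plus strand, lies before the start of its shorter transcripts and within the first intron of the longest. The Ifitm2 window is chr7:140955988-140956107, the Ifitm3 window chr7:141010771-141010890 and the Ifitm6 window chr7:141016909-141017028, all on the minus strand. The Ifitm6 window likewise lies before the start of its shortest transcript and within the first intron of the longer ones, after the 5′ end of the gene given above.
Ifitm1: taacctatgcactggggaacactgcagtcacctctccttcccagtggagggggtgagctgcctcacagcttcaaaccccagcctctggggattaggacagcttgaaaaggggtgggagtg
Ifitm2: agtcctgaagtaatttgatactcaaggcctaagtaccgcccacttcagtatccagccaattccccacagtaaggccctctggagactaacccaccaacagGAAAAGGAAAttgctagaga
Ifitm3: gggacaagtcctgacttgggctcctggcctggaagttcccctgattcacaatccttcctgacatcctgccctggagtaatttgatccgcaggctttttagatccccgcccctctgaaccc
Ifitm6: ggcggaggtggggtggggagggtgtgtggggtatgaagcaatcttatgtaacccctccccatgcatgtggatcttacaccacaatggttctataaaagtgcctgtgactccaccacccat
In Ifitm3 the letters stood just after the RefSeq start, in exon 1, where 30 bases at chr7:141010714-141010743 on the minus strand held them at 2 places.
Ifitm3, after the start: gGAAAAGGAAActtctgaGAAACCGAAAct

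The motif began 46 bases before the start of Ifitm2, and at bases 3 and 20 of the Ifitm3 transcript. It was not in the Ifitm1 or Ifitm6 windows searched. Of all 32851 promoter windows, 3.44% held it at least once and 0.225% held it at 2 or more places. Of the 15 genes of an interferon response list with an entry, 8 held it. These are matches of letters, not measured sites.

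Ifitm2 was the member with the most UMIs in B cells of the B6.SLE123 library. Over hashtags it ranged from 2146 through a median of 4273 to 4951 CPM there, against 2.71 to 5.35 CPM, with a median of 3.68, in the control library and 1.91 to 3.10 CPM, with a median of 2.74, in the Ang II library. The 6 B6.SLE123 hashtags lay far above the other 12 with no overlap, and C0302 and C0303 were the lowest of them, at 2146 and 2269 CPM. Summed over B cells, Ifitm2 was at 3774 CPM (3753 to 3796) from 117991 UMIs in the B6.SLE123 library and at 4.22 CPM (3.49 to 5.06) from 117 UMIs in control. That is a log2 ratio of 9.80 (9.54 to 10.08), or 894-fold. A UMI of it was seen in 95.7% of B6.SLE123 B cells, with a median of 7 UMIs per cell, and in 0.758% of control B cells.

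Ifitm1 followed the same pattern at fewer UMIs. Its hashtags ranged from 838 through 1530 to 2069 CPM in B6.SLE123 B cells, from 0.226 through 0.791 to 1.86 CPM in control and from 0.382 through 0.709 to 0.979 CPM in Ang II. Again every B6.SLE123 hashtag lay above every other, and C0302 was again the lowest. The summed level was 1475 CPM (1461 to 1488) against 1.55 CPM (1.12 to 2.09), with 46096 and 43 UMIs, a log2 ratio of 9.89 (9.46 to 10.36). Of the 43 control UMIs, 16 came from the 198 B cells with no called hashtag, and with hashtagged cells alone the log2 ratio was 10.55 (10.01 to 11.15). In B6.SLE123, 68.9% of B cells had a UMI (68.1 to 69.7) and 8.95% had 10 or more, while no control B cell had more than 3.

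Ifitm3 was higher as well, by much less. B6.SLE123 hashtags ranged from 44.2 through 86.8 to 118 CPM, control hashtags from 9.02 through 12.2 to 21.999 CPM and Ang II hashtags from 4.96 through 8.73 to 9.79 CPM. The lowest B6.SLE123 hashtag was above the highest of control, with a narrower gap than for Ifitm1 and Ifitm2. Summed over B cells it was at 86.8 CPM, and 14.0 CPM in control, for a log2 ratio of 2.63 (2.48 to 2.79), or 6.19-fold. A UMI was seen in 12.9% of B6.SLE123 and 2.06% of control B cells.

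Ifitm6 did not share the difference. Its B6.SLE123 hashtags, from 0.694 through 0.961 to 2.20 CPM, overlapped those of control, from 0.677 through 1.54 to 2.34 CPM. The summed levels of 1.12 and 1.73 CPM gave a log2 ratio of -0.63 (-1.30 to 0.03) from 35 and 48 UMIs. Ifitm6 was seen in 0.26% of B6.SLE123 B cells and 0.308% of control B cells, near its 0.356% in control NK cells at 1694 median UMIs against 1764 in B cells, so its B cell level is not read as expression. The same holds for Ifitm1 and Ifitm2 in control B cells, at 0.233% and 0.758% of cells against 0.356% and 0.890% in control NK cells. Their fold changes therefore set B6.SLE123 against a level that could not be told from free RNA. The NK cell shares rest on few of the 562 control NK cells. Ifitm1 and Ifitm6 were each in 2 of them (0.0431% to 1.28%) and Ifitm2 in 5 (0.289% to 2.06%).

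Among 11375 genes with at least 50 UMIs over both libraries, 5.45% were at least 2-fold higher in B6.SLE123 B cells and 1.7% at least 2-fold lower. Of the members, 3 of 4 were past 2-fold higher and none lower, which is how Ifitm1 and Ifitm2 came to be chosen. Ifitm1 and Ifitm2 ranked 8 and 9 among all these genes by ratio, and Ifitm3 ranked 100. All 6 B6.SLE123 hashtags lay above all 6 control hashtags for 3 of 4 members and for 9.85% of genes. This share was counted in B cells only, so none stands beside the hashtag ranges of other classes below.

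**Figure D1:**
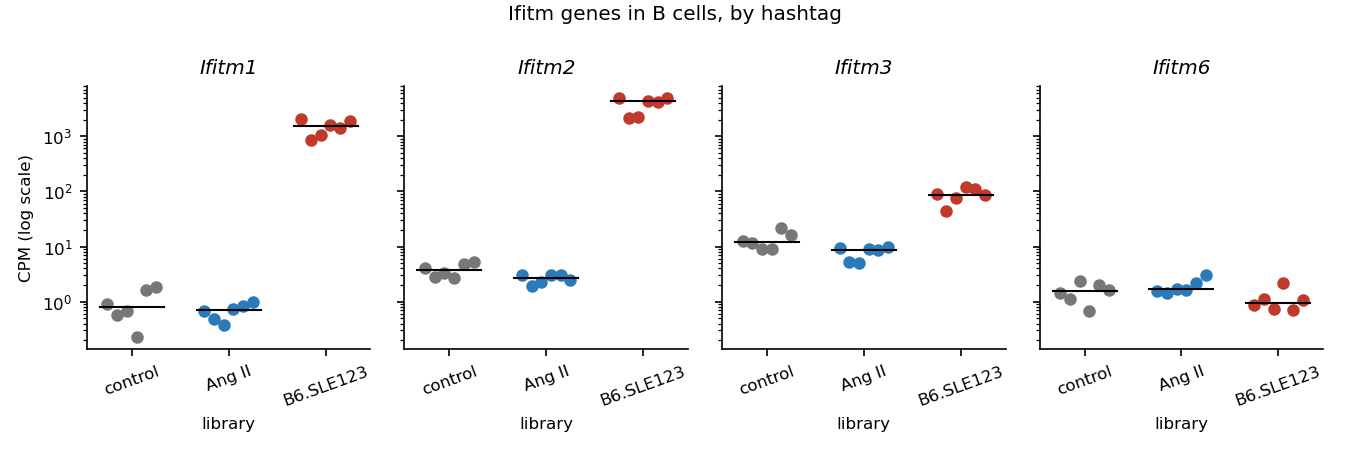
Level of each gene in B cells (CPM, log scale) for the 6 hashtags of each library, with a point per hashtag and a line at their median. For Ifitm1, Ifitm2 and Ifitm3 all B6.SLE123 points sit above all control and Ang II points, and for Ifitm6 the libraries overlap.

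In B cells of the Ang II library, the rule had used no value. Ifitm1 was at 0.724 CPM against 1.55 in control, a log2 ratio of -1.10 (-1.86 to -0.36) from 26 and 43 UMIs. That made 1 of 4 members past 2-fold lower, beside 0.556% of 11321 genes, and none past 2-fold higher, beside 1.02%. With hashtagged cells alone, the ratio was -0.48 (-1.32 to 0.36) from 25 and 27 UMIs, and the interval spanned 0. Ifitm2 was at -0.41 (-0.80 to -0.03), Ifitm3 at -0.79 (-1.01 to -0.56) and Ifitm6 at 0.25 (-0.29 to 0.81). As Ifitm1, Ifitm2 and Ifitm6 in control B cells were not read as expression above, their ratios here are not read as changes of expression. The Ang II hashtags overlapped those of control for all 4 genes.

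The control library mixed male and female mice, whereas the B6.SLE123 mice were female. Among control B cells, 3372 (25.3%) had a UMI of Xist, the RNA made from the inactive X chromosome of female cells. Against these cells alone, the B6.SLE123 log2 ratios were 10.81 for Ifitm1 from 7 control UMIs, 9.84 for Ifitm2 and 2.52 for Ifitm3. These cells had a median of 2064.5 UMIs, beside 1764 over all control B cells.

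Within B6.SLE123 B cells, Ifitm1 and Ifitm2 were spread over most cells. To compare cells at equal depth, each was thinned to 1000 UMIs, which left out 1328 B6.SLE123, 979 control and 681 Ang II B cells that had fewer. Ifitm2 was then seen in 90.7%, Ifitm1 in 57.4% and both in 54.3% of B6.SLE123 B cells. Ifitm2 was seen in 94.5% of the cells with an Ifitm1 UMI and in 85.5% of those without. The thinned shares in control B cells were 0.105% for Ifitm1 and 0.413% for Ifitm2. For Ifitm3 thinning gave 7.26% in B6.SLE123 and 1.02% in control.

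The B cell subsets carried Ifitm2 throughout and differed in Ifitm1. In follicular cells, the recirculating resting B cells gated by markers that include Fcer2a, Ighd and Cxcr5, Ifitm1 was at 1553 CPM and Ifitm2 at 4122 CPM over 1747 cells. In marginal zone cells, the first responders to blood-borne antigen, Ifitm1 was at 1117 CPM and Ifitm2 at 3564 CPM over 711 cells. In germinal centre cells, which divide and are selected for antigen binding, gated by markers that include Bcl6, S1pr2, Mef2b and Rgs13, Ifitm1 was at 75.1 CPM (64.8 to 86.6) and Ifitm2 at 2071 CPM (2015 to 2128) over 409 cells. Their Ifitm2 UMIs, 5266 beside 19227 in the follicular cells, were not fewer per cell. In CPM, germinal centre cells were lower than follicular cells in both genes, and further below them in Ifitm1.

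This held in each hashtag. Germinal centre cells had 51.0 to 175 CPM of Ifitm1 over the 6 B6.SLE123 hashtags, and follicular cells had 1020 to 1938 CPM, with no overlap. For Ifitm2 the ranges were 1292 to 3215 CPM and 2449 to 5164 CPM, which overlapped. Within each of the 6 hashtags, germinal centre cells were below follicular cells, at 46.5% to 62.2% of their Ifitm2 level and 3.31% to 9.16% of their Ifitm1 level. The number of Ifitm1 UMIs per Ifitm2 UMI was 0.0363 (0.0312 to 0.0419) in germinal centre cells, with hashtags from 0.0238 to 0.0544, and 0.377 (0.367 to 0.387) in follicular cells, with hashtags from 0.345 to 0.417. This ratio compares cell groups, not the levels of the genes, which are not scaled by length. Germinal centre cells had a median of 5552 UMIs against 2188 in follicular cells, and in control only 44 germinal centre cells were found, with 0 Ifitm1 UMIs and 1 Ifitm2 UMI.

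Cycling B cells, gated by Mki67, Top2a, Birc5 and Cdk1, came next, with 234 CPM of Ifitm1 and 1995 CPM of Ifitm2 over 363 cells, or 0.117 Ifitm1 UMIs per Ifitm2 UMI. A cell could pass several of these gates, so these groups are not separate. Atypical B cells, marked by T-bet and CD11c and known to build up in lupus, had 1272 CPM of Ifitm1 and 2755 CPM of Ifitm2 over 602 cells. The B1 gate, 86 cells with 0.670 Ifitm1 UMIs per Ifitm2 UMI, and the transitional gate, 50 cells with 0.820, had the highest ratios of summed UMIs. Over hashtags the B1 ratio ran from 0.182 in C0303, below the follicular range, to 0.862, and 27 of the 50 transitional cells came from C0303, so neither rank is firm. In the control library, Ifitm1 was at 4.38 CPM or less in each of the 7 gates.

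UMIs of Ifitm2 were also found in plasma cells, the antibody-secreting end stage of B cells, in the B6.SLE123 library. Its hashtags ranged from 698 through 1045 to 2175 CPM, and the sum was 1067 CPM (1032 to 1103) over 314 cells. In control plasma cells there were 0 Ifitm2 UMIs in 25 cells, which allows up to 12.4 CPM and up to 12% of cells with a UMI, so Ifitm2 was at least 86.4-fold higher, counted against 3 UMIs over the group. Ifitm1 was at 91.8 CPM (81.6 to 103) and Ifitm3 at 49.5 CPM (42.1 to 57.8). An Ifitm2 UMI was in 86.3% of B6.SLE123 plasma cells, at a median of 9767.5 UMIs per cell against 1907 in B cells. The 3428 Ifitm2 UMIs of 314 plasma cells, beside 117991 in 13079 B cells, were not fewer per cell. As shares of the B cell CPM in the same library, plasma cells held 28.3% of Ifitm2 and 6.23% of Ifitm1. Beside these stood 2.41% of Ighd, 6.75% of Bank1, 7.09% of Cd22, 12.8% of Blk, 19.97% of Ly6d and 30.8% of Cd74. By this measure Ifitm2 stood above each of these other genes but Cd74, and Ifitm1 above Ighd only. The other genes were picked after their values had been seen, and RNA from B cells in the plasma cell barcodes was not tested. Among 4547 genes tested in plasma cells, 12.2% were at least 2-fold higher in B6.SLE123, as were Ifitm1, Ifitm2 and Ifitm3, while Ifitm6 had under 50 UMIs. For Ifitm3 control had 4 UMIs, and the log2 ratio of 1.59 had an interval that reached under 2-fold (0.20 to 3.48).

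NK cells, innate killer lymphocytes, showed the same for Ifitm2 outside the B lineage. Hashtags ranged from 781 through 1124 to 1338 CPM in B6.SLE123 NK cells, from 0 through 2.79 to 13.5 CPM in control and from 0 through 2.43 to 9.23 CPM in Ang II. No B6.SLE123 hashtag came near the range of the others. Over 606 and 562 cells, the sums of 1116 CPM (1047 to 1187) and 5.64 CPM (2.07 to 12.3) gave a log2 ratio of 7.63, with 987 and 6 UMIs. Ifitm1 was at 80.3 CPM (62.7 to 101) from 71 UMIs against 2 UMIs in control, and Ifitm3 at 31.6 CPM (21.03 to 45.7) against 5.64 CPM. Among 5168 genes tested in NK cells 1.1% were at least 2-fold higher, and the same held for Ifitm1 and Ifitm2, while Ifitm3 and Ifitm6 had under 50 UMIs over both libraries.

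Free RNA from B cells, which make up 78.3% of B6.SLE123 cells, gives other cells some UMIs of B cell genes. For B6.SLE123 NK cells, levels were set as a share of the B cell level in the same library. They held 2.67% of Ighd, 3.22% of Cd22, 1.87% of Bank1, 1.499% of Ly6d, 0.422% of Blk and 1.70% of Cd74. These genes were picked after their values had been seen, and not all were confined to B cells in this library. Cd22 was at 238.71 CPM in monocytes, beside 246.022 CPM in B cells. In plasmacytoid dendritic cells, Ly6d was at 2558 CPM and Cd74 at 17653 CPM, beside 2564 and 24017 CPM in B cells. The NK cells held 29.6% of the Ifitm2 level and 5.44% of the Ifitm1 level. For Ifitm3 the share says little, since B cells held 2715 of the 22285 Ifitm3 UMIs of the library, and it was 36.4% in B6.SLE123, 40.2% in control and 80.8% in Ang II. The NK cell share of Ifitm2 was above that of each of these 6 genes. RNA from B cells in the NK cell barcodes was not tested. For Ifitm1 in NK cells the gap was small, 5.44% beside up to 3.22%, the share of Cd22. A UMI of Ifitm2 was in 53.0% of B6.SLE123 NK cells at 1307 median UMIs per cell. The 12 cells called T cells in B6.SLE123 held Ifitm2 at 2038 CPM from 47 UMIs, against 2 UMIs in 257 T cells of the Ang II library.

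Plasmacytoid dendritic cells (pDC), the main producers of type I interferon, had the highest Ifitm2 of the gated classes in the B6.SLE123 library, 4656 CPM (4332 to 4997) over 44 cells, and a UMI was in all 44. The 39 control pDC had 0 UMIs, which allows up to 18.8 CPM, so the level was at least 248-fold higher. Ifitm1 was at 212 CPM from 35 UMIs, found in 5 of the cells, and Ifitm3 at 321 CPM from 53 UMIs. In conventional dendritic cells, which present antigen to T cells, Ifitm2 was at 2683 CPM (2550 to 2820) over 122 cells against 243 CPM (194 to 300.0) over 77 cells, a log2 ratio of 3.47 (3.15 to 3.80). Ifitm3 was at 1209 and 907 CPM in the same cells, a ratio of 0.41 (0.22 to 0.61).

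**Figure D2:**
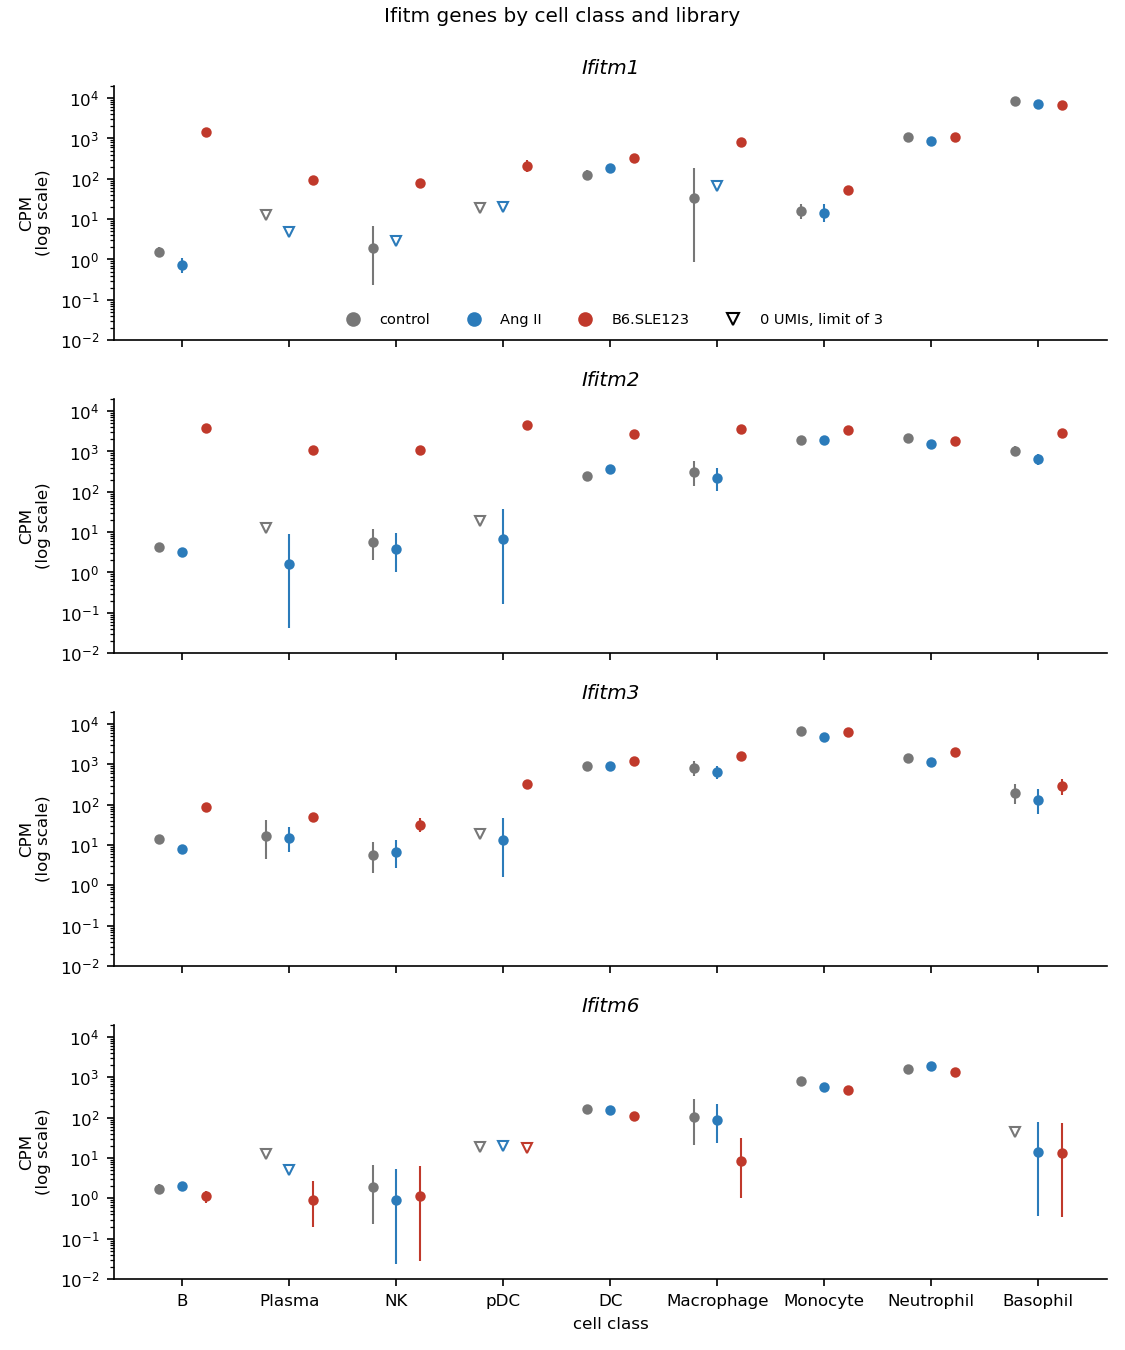
Level of each gene (CPM, log scale) in 9 cell classes of the 3 libraries, with bars for 95% counting intervals and open triangles at the level of 3 UMIs where none was seen. B6.SLE123 Ifitm2 lies far above the other libraries in B, plasma, NK and pDC cells and close to them in monocytes and neutrophils, where every library was at 1527 or more.

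In the classes where Ifitm2 was already high in control mice, the libraries were closer. In monocytes, the circulating precursors of macrophages, Ifitm2 hashtags ranged from 2999 through 3975 to 4086 CPM in B6.SLE123 and from 1748 through 1955 to 2098 CPM in control, without overlap. How many of all genes separate in this way in monocytes was not counted. The log2 ratio of the Ifitm2 sums was 0.80 (0.73 to 0.87). Monocyte Ifitm1 stood at 54.2 CPM in B6.SLE123 and 16.0 CPM in control, which is a log2 ratio of 1.76 (1.07 to 2.49). It was the 1 member of 4 past 2-fold higher in monocytes, where 3.21% of 6005 genes were. This rested on hashtag C0303, which held 60 of the 81 UMIs. The B6.SLE123 hashtags, from 6.69 through 28.9 to 88.5 CPM, overlapped those of control, from 10.7 through 16.5 to 19.0 CPM, and without C0303 the log2 ratio was 0.68 (-0.25 to 1.60). The 12 neutrophil markers, with none at 0 in B6.SLE123 and 2 at 0 in control, summed to 15258 CPM in B6.SLE123 monocytes, 335 CPM in control and 11370 CPM in Ang II. They were at 33032 CPM in C0303 and at 187 to 1147 CPM in the other B6.SLE123 hashtags, and their part in the Ifitm1 level was not tested. Ifitm3, whose levels were highest in monocytes in all libraries, was at 6289 CPM in B6.SLE123, 6747 CPM in control and 4792 CPM in Ang II, and the B6.SLE123 ratio was -0.10 (-0.14 to -0.06), or 0.04 (-0.01 to 0.08) without C0303. Ifitm6 was at 484 against 807 CPM, with B6.SLE123 hashtags from 277 to 589 CPM all below control hashtags from 708 to 1111 CPM. The same held for the Ang II library, at 576 CPM with hashtags from 470 to 687 CPM. The B6.SLE123 log2 ratio of Ifitm6 was -0.74, and -1.01 without C0303.

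Neutrophils, phagocytes that carry microbicidal granules, had all 4 genes in every library. No member was past 2-fold in this class, where 5.79% of 4783 genes were at least 2-fold higher. The B6.SLE123 log2 ratios were 0.03 (-0.06 to 0.13) for Ifitm1, -0.27 (-0.34 to -0.19) for Ifitm2, 0.48 (0.40 to 0.56) for Ifitm3 and -0.23 (-0.31 to -0.15) for Ifitm6. These values leaned on hashtag C0303, which held 278 of the 663 B6.SLE123 neutrophils. Without it the ratios were 0.83 (0.73 to 0.93) for Ifitm1, 0.01 (-0.07 to 0.09) for Ifitm2, -0.05 (-0.16 to 0.05) for Ifitm3 and -0.44 (-0.54 to -0.33) for Ifitm6, again with none past 2-fold. Over hashtags Ifitm1 ranged from 464 through 2078 to 3844 CPM in B6.SLE123 and from 694 through 1248.5 to 1831 CPM in control. Ifitm3 ranged from 910 through 1220 to 2568 CPM and from 1128 through 1444 to 1990 CPM. The libraries overlapped for both genes, and C0303 was the lowest in Ifitm1 and the highest in Ifitm3. The class was of mixed maturity, and its makeup differed between libraries. Cells with more of the granule genes Ngp, Camp, Ltf and Lcn2, which mark immature neutrophils, were 43.4% of the class in B6.SLE123, 15.7% in control and 28.4% in Ang II. They were 57.9% in C0303 and 32.99% in B6.SLE123 without it.

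On these sides of the class the members parted. In the cells with more of Retnlg, Mmp8, Cxcr2 and Csf3r, the mature side, Ifitm1 was at 6106 CPM (5838 to 6383) in B6.SLE123, 2488 CPM (2357 to 2624) in control and 3419 CPM (3285 to 3557) in Ang II. Ifitm2 was at 6090, 4262 and 3990 CPM there, and at 1055 (1006 to 1106), 520 (465 to 579) and 620 CPM on the granule side. It was thus higher in B6.SLE123 than in control on each side, though not in the class as a whole. Hashtags of these libraries overlapped on each side. Granule-side cells of B6.SLE123 had a median of 5107.5 UMIs, and mature-side cells 849.5. Their Ifitm2 UMIs, 1747 in 288 granule-side and 1952 in 324 mature-side cells, were nearly alike per cell, so the gap between sides in Ifitm2 CPM is not one in UMIs per cell. On the granule side Ifitm1 was at 140 CPM (123 to 159), 4.70 CPM (0.968 to 13.7) and 11.4 CPM (6.96 to 17.6). Ifitm6 ran the other way, with 1478, 2662 and 2259 CPM on the granule side and 418, 180.2 and 302.5 CPM on the mature side. On the mature side, Ifitm1 ranged over hashtags from 3417 CPM in C0303 to 8508 CPM in B6.SLE123 and from 1134 to 3101 CPM in control, without overlap. Without C0303, B6.SLE123 Ifitm1 was at 7587 CPM on the mature side and 219 CPM on the granule side. Ifitm2 was then at 6615 and 957 CPM, and Ifitm6 at 179 and 1428 CPM. Of the 134 mature-side Ifitm6 UMIs of B6.SLE123, 97 came from C0303, so the 418 CPM rested on that hashtag.

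Basophils, few in number, were the class with the most Ifitm1 in all libraries. It was at 8471 CPM (7786 to 9200) in 33 control cells, 7143 CPM (6528 to 7800) in 21 Ang II cells and 6925 CPM (6334 to 7555) in 28 B6.SLE123 cells. Ifitm2 in the same cells was at 1051, 634 and 2847 CPM, a B6.SLE123 log2 ratio of 1.44 (1.04 to 1.85). Macrophages, the resident phagocytes of the spleen, had 3697 CPM of Ifitm2 (3454 to 3953) in B6.SLE123 against 304.9 CPM (139 to 579) in control, from 858 UMIs and 9 UMIs.

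Ordered by Ifitm2 CPM in the B6.SLE123 library, not by UMIs per cell, the 9 classes plotted began with pDC, B cells, macrophages, monocytes and basophils. DC, neutrophils, NK cells and plasma cells followed. The counting interval of macrophages overlapped those of B cells and monocytes, that of basophils overlapped that of DC, and that of NK cells overlapped that of plasma cells. In the control library, by contrast, neutrophils (2194 CPM) and monocytes (1961 CPM) led, basophils (1051 CPM) followed, and B, NK, plasma and pDC cells were at 5.64 CPM or less. Ifitm1 per Ifitm2 UMI in B6.SLE123 ran from 0.0158 in monocytes through 0.0456 in pDC, 0.0719 in NK, 0.0861 in plasma cells and 0.119 in DC to 0.391 in B cells, 0.611 in neutrophils and 2.43 in basophils. The NK and plasma cell intervals overlapped (0.0557 to 0.0916 and 0.0761 to 0.0970), whereas that of B cells lay well above both (0.386 to 0.395).

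**Figure D3:**
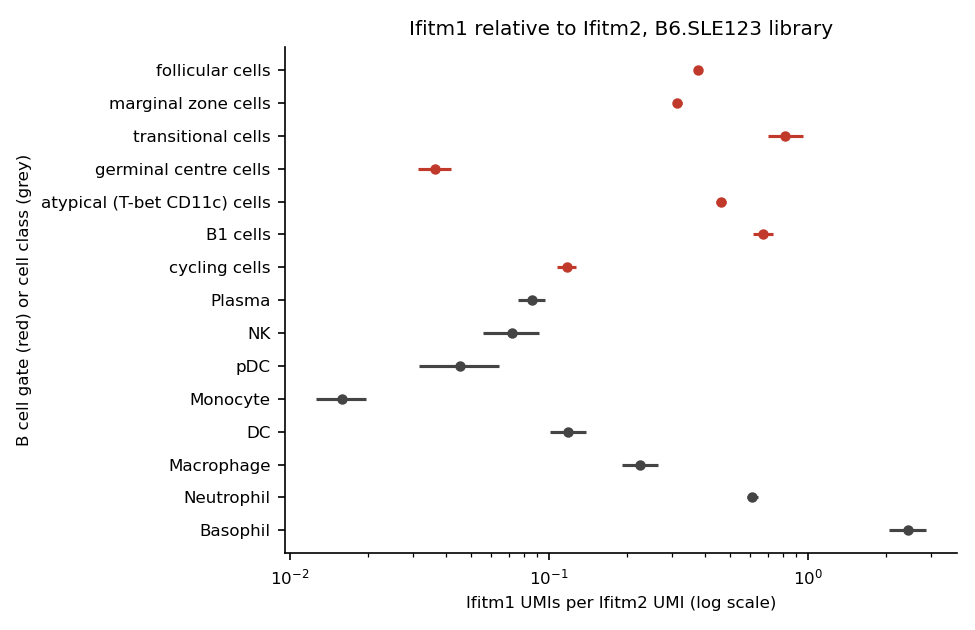
Ifitm1 UMIs per Ifitm2 UMI (log scale) in the B6.SLE123 library for 7 B cell gates (red) and 8 other classes (grey), with 95% counting intervals. Germinal centre cells (0.0363) sit near pDC and NK cells, away from follicular cells (0.377).

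Of the UMIs of the 4 genes together, not scaled by gene length, Ifitm2 made up 70.7% and Ifitm1 27.6% in B6.SLE123 B cells, with 1.63% for Ifitm3 and 0.0210% for Ifitm6. In control B cells, from 597 UMIs in all, Ifitm3 made up 65.2%. Over all kept cells the B6.SLE123 log2 ratios were 3.99 for Ifitm1, 4.03 for Ifitm2, 0.29 for Ifitm3 and -0.13 for Ifitm6.

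A list of other interferon response genes was set beside the members. The list held 21 written genes, of which 20 were matched and tested in B cells, among them antiviral effectors, sensors and the factors Stat2 and Irf7. Of these 20, 1 was at least 2-fold higher in B6.SLE123 and 0 at least 2-fold lower, beside 5.45% and 1.7% of all genes tested. Their median log2 ratio was 0.13, beside a median of -0.05 over all genes tested. The highest were Ifi44, an interferon-induced gene at 1.74 (0.84 to 2.75) from 49 and 13 UMIs, Bst2, which tethers budding virus, at 0.90 (0.82 to 0.98), and Usp18, a brake on the interferon receptor, at 0.63 (0.33 to 0.93). The lowest were Cmpk2, a mitochondrial nucleotide kinase, at -0.82 (-1.08 to -0.58), Rsad2, the antiviral enzyme viperin, at -0.54 (-1.08 to -0.01), and Oasl2 at -0.40 (-0.69 to -0.11). Isg15, the ubiquitin-like interferon-stimulated protein, was at 58.5 against 43.0 CPM.

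The summed level of the 20 genes in B cells ranged over hashtags from 577 through 719 to 854 CPM in B6.SLE123 and from 521 through 573 to 731 CPM in control, with overlap. The B6.SLE123 hashtag with the lowest sum, C0301 at 577 CPM, had the highest Ifitm1 and Ifitm2, at 2069 and 4951 CPM. The hashtag with the highest sum, C0303 at 854 CPM, had the second lowest of both, at 1034 and 2269 CPM. C0302, the lowest in both members, had a sum of 667 CPM, below the median, so no order is read from these 6 pools. In thinned B6.SLE123 B cells the list summed to 733 CPM in cells with an Ifitm1 UMI and 719 CPM in those without.

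Of 8 interferon receptor and signalling genes, 0 were past 2-fold either way, with a median of -0.13. Over all genes tested, 5.45% were past 2-fold higher and 1.7% lower. Ifngr2 was at 0.04, Ifnar2 at 0.02 and Irf9, a DNA-binding factor of the response, at -0.07, while Jak2 was at -0.44, Ifnar1 at -0.41 and the kinase gene Jak1 at -0.26. Of 7 genes of the B cell coreceptor and tetraspanins, 1 was past 2-fold lower, Cr2, which encodes the complement receptor CD21, at -1.06 (-1.10 to -1.02), with 226 against 472 CPM. Cd9 was at 0.74, Cd81 at 0.16, Cd82 at -0.12 and Cd37 at -0.58. Of 5 genes for known partners and modifiers of IFITM proteins none was past 2-fold. Vapa, a partner in cholesterol transport, was at 0.20 and the proton pump gene Atp6v0b at -0.05, while Zmpste24 was at -0.14, the palmitoyl transferase gene Zdhhc20 at -0.25, and Nedd4, a ubiquitin ligase that marks IFITM3 for degradation, at -0.59. The 9 further genes of the family and related dispanins had too few UMIs in B cells for a ratio. In the Ang II library 0 of 19 interferon response genes were past 2-fold either way, beside 1.02% of all genes higher and 0.556% lower. Their median was -0.11, beside 0.06 over all genes tested.

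**Figure D4:**
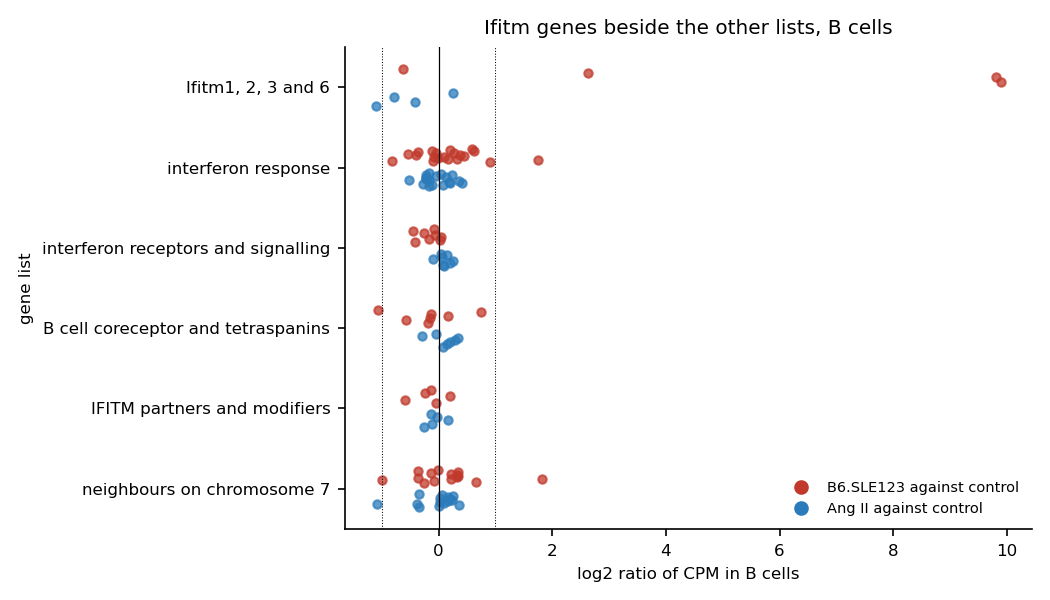
Log2 ratios in B cells of the 4 members and of 5 lists, for B6.SLE123 (red) and Ang II (blue) against control, with a point per gene tested and dotted lines at 2-fold. Ifitm1, Ifitm2 and Ifitm3 lie outside the spread of every list in B6.SLE123, between 2.63 and 9.89, where the list genes lie at 1.82 or less.

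Genes beside the members on chromosome 7 were looked at as well. Within 250 kb of the cluster, 15 other genes were tested in B cells, with a median log2 ratio of 0.21 in B6.SLE123. The nearest of them, Pgghg, a glucosidase gene next to the Ifitm2 side of the cluster, was the only gene at least 2-fold higher, at 1.82 (1.55 to 2.09) from 580 and 146 UMIs. Its hashtags ranged from 11.4 through 21.4 to 23.3 CPM in B6.SLE123 and from 4.54 through 4.77 to 7.30 CPM in control, without overlap, and from 4.13 to 7.997 CPM in Ang II. All 6 B6.SLE123 hashtags lay above all 6 control hashtags for 9.85% of genes tested. Of the 15 neighbours, 1 was at least 2-fold higher and 1 at least 2-fold lower, beside 5.45% and 1.7% of all genes tested. Hras was at 0.66 and Psmd13 at 0.34, and the lowest were Lmntd2 at -1.003 (-1.63 to -0.39), Sigirr at -0.36 and Phrf1 at -0.36. Irf7, a master factor of the interferon response that lies in the same stretch, was at -0.08 (-0.28 to 0.12). In the Ang II library Pgghg was at 0.09 (-0.23 to 0.41) and Lmntd2 at -1.09 (-1.70 to -0.49). There Lmntd2 was the 1 of 15 past 2-fold lower, beside 0.556% of all genes tested, and none was past 2-fold higher, beside 1.02%.

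**Figure D5:**
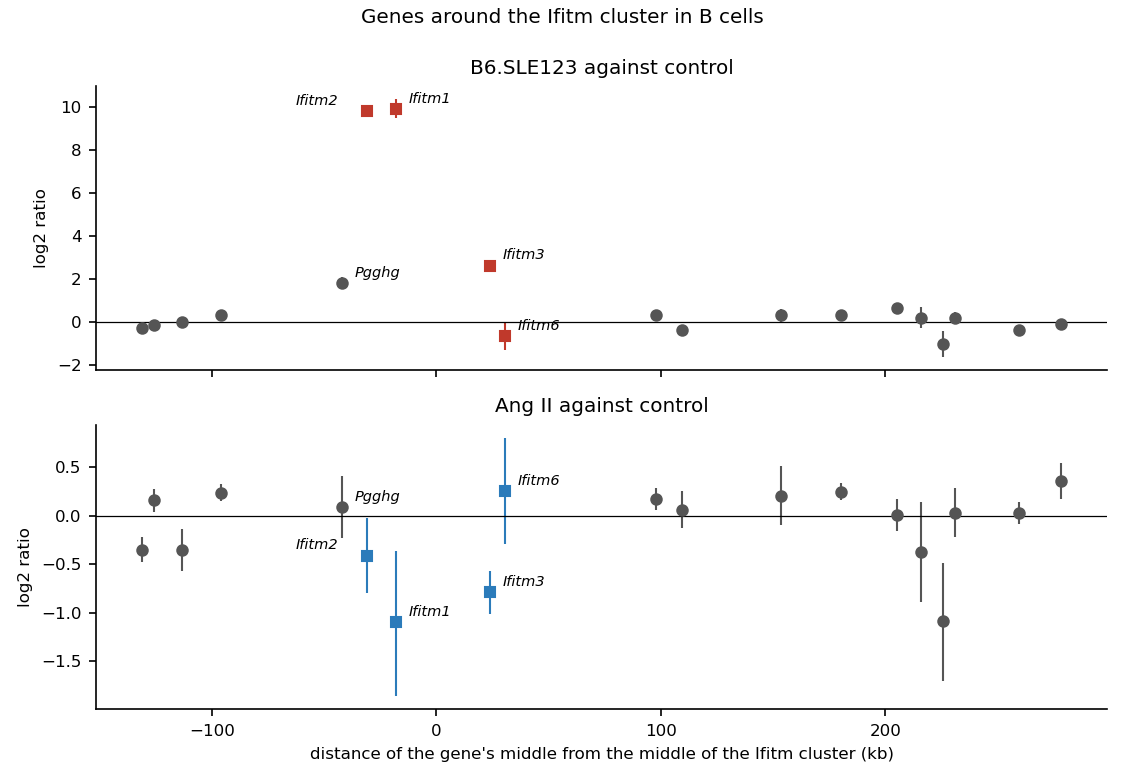
Log2 ratio in B cells of each gene tested around the cluster against its distance (kb) from the cluster's middle, with 95% counting intervals, for B6.SLE123 above and Ang II below on separate scales. Squares are the 4 members. In B6.SLE123, Ifitm1 stands at 9.89, Ifitm2 at 9.80, Ifitm3 at 2.63 and Pgghg at 1.82, and the other genes lie between -1.003 and 0.66.

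The genes whose levels ran most like each member were sought over 29 points, each a cell class of a library with at least 20 cells, on log2(CPM + 1) among 11086 genes. Points of a library share its depth and free RNA, so Pearson's r is a description here. Ifitm1 ran most like Mpc2, a mitochondrial pyruvate carrier gene, with r of 0.82, and then Cd63 (0.78) and Ier3 (0.76). Ifitm2 ran most like Eif4ebp1 (0.74), Ftl1-ps1 (0.74) and Lgals3 (0.73). Ifitm3 ran most like Ear2, Tlr13 and Sirpb1b (0.89, 0.88 and 0.87), and Ifitm6 most like Mctp1, Cd300ld and Pram1 (0.91, 0.89 and 0.89), of which Ear2 is also a monocyte marker used for gating. Among the members, r was 0.80 between Ifitm1 and Ifitm2, 0.83 between Ifitm2 and Ifitm3 and 0.34 between Ifitm1 and Ifitm6.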

How the data were processed

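The authors deposited, per the file headers, the UMI counts that Cell Ranger 6.0.0 gave for every barcode, gene and hashtag, with no normalization. The labels name mm10. Barcodes were kept above 200 and below 3500 genes and below 15% mitochondrial UMIs, limits that the study states as RNA counts. An Otsu threshold on log counts called hashtags, and barcodes with several were dropped. Doublets of cells with the same hashtag were not seen. Classes were called by a minimum number of detected markers, set with the data in view. Genes named were the members, the 3 genes most like each, and the 3 highest and 3 lowest of each list. Members and lists were chosen with earlier results of these data known. Kept cells held 33787856 (control), 45457553 (Ang II) and 43103358 (B6.SLE123) UMIs. Counts were summed per class, and genes with 50 UMIs or more over both libraries were held to a 2-fold limit. Intervals came from scipy 1.17.1 and were tested on simulated data, and edgeR 4.0.16 gave the TMM factors of 1 alternative. Transcripts were aligned with Biopython 1.88. Values and names of some genes of these lists are not reported here.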

Additional observations from a re-analysis of the deposited data

How the results depend on the processing

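No paired analysis was possible because each group had 1 library. Of 170 recomputed B cell results, 153 stayed within the counting interval of the reported value or within 1.5 times the reported count, and no called ratio reversed. The B6.SLE123 log2 ratio of Ifitm1 moved to 10.55 with hashtagged cells only, an alternative chosen after seeing the data, and to 10.81 against control cells with Xist. That of Ifitm2 moved to 9.44 with barcodes of several hashtags kept. That of Ifitm3 moved to 2.93 with cells thinned to 1000 UMIs. That of Ifitm6 moved to 0.19 with barcodes of several hashtags kept, where its counts were 90 and 67. Leaving out each hashtag in turn gave 9.68 to 10.01 for Ifitm1, 9.70 to 9.93 for Ifitm2, 2.52 to 2.82 for Ifitm3 and -0.96 to -0.53 for Ifitm6. In Ang II, the Ifitm1 ratio was -0.18 against control cells with Xist, where control had 7 UMIs, and thinning gave -0.53 for Ifitm3 and 1.18 for Ifitm6. The Xist setting puts male Ang II mice against female control cells, so sex differs in it as well as treatment. Genes past 2-fold in B6.SLE123 B cells numbered 813, and 486 with limits read as UMIs, 438 thinned, 1702 at a minimum of 10 UMIs and 4609 with no minimum. In Ang II the numbers were 179, then 336 against control cells with Xist, where sex differs too, 100 thinned, 728 and 3633. Fewer genes reach 50 UMIs once cells are thinned; the cause of the other shifts was not tested. The 12 thinned shares of cells with a UMI all fell. With 7 to 48 control UMIs, ratios of Ifitm1 and Ifitm6 are limited by depth. In other classes, leaving out each hashtag in turn, chosen after seeing the data, turned the sign of B6.SLE123 ratios of Ifitm3 in monocytes (-0.14 to 0.037), Ifitm2 (-0.55 to 0.012), Ifitm3 (-0.053 to 0.66) and Ifitm6 (-0.44 to 0.019) in neutrophils and Ifitm1 in basophils (-0.36 to 0.14). It left Ifitm1 under 2-fold without C0303 of B6.SLE123 in monocytes (0.68) and DC (0.53), and Ifitm3 in macrophages (0.34 without C0305 of control).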
